A study of Mus musculus with 5 samples.

Results

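The transcripts described here encode the subunits of the proteasome, measured in RNA that was precipitated with an antibody to Staufen1 from mouse muscle stem cells. Members were all genes of the deposited count table whose symbol is Psma, Psmb, Psmc or Psmd followed by a number, which gave 37 of 11194 genes. RefSeq lists 39 genes of this form in the mouse. Psma8 and Psmb11, the other two, were not analysed here. By role, 7 members encode the alpha ring of the 20S core (Psma), 7 its constitutive beta ring (Psmb1 to Psmb7), 3 the immunoproteasome beta subunits (Psmb8, Psmb9 and Psmb10), 6 the ATPases of the 19S cap (Psmc) and 14 the other cap subunits and cap chaperones (Psmd).

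The libraries are 3 precipitates from the muscle stem cells of wild type mice (Stau+/+) and 2 from those of Staufen knockout mice (Stau-/-), each named by its title number. The same rabbit antibody was used for both genotypes. About 100 pg of the recovered RNA went into oligo(dT)-primed cDNA synthesis and amplification. The labels state neither age, sex and strain of the mice nor whether libraries of 1 genotype came from separate animals, so p-values measure only the spread between these libraries, which may be technical. No input RNA was used here. A change in the amount of a transcript per cell, in the number of cells that hold it and in its recovery by the antibody therefore cannot be told apart.

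The proteasome is the large protease that degrades proteins tagged with ubiquitin. Its barrel-shaped 20S core has outer alpha rings that gate the entry and inner beta rings that cut. The 19S cap binds ubiquitin chains, removes them and unfolds the substrate with its ring of ATPases. Interferon induces replacement of the cutting subunits Psmb5, Psmb6 and Psmb7 by Psmb8, Psmb9 and Psmb10, and the resulting immunoproteasome produces peptides for MHC class I. In muscle the pathway degrades contractile proteins during wasting, and MyoD, the protein in the title of the series, is itself one of its short-lived substrates.

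Totals ran from 3091302 counts in knockout 2 to 105473455 counts in wild type 1, a 34.1-fold range, and both knockout libraries were shallower than all wild type libraries. The Stau1 transcript was at 104.3 to 126.8 CPM in the wild type libraries and at 109.0 and 110.7 CPM in the knockout libraries (CPM, the count rescaled to a common library total, with totals adjusted by the trimmed mean of M-values). It did not mark the libraries labelled knockout, so the groups below are those of the labels. All 8 muscle stem cell markers looked up had a row, with Pax7 at 180.7 to 263.2 CPM over all libraries. All 8 had a positive log2 fold change, wild type over knockout, with a median of 0.49. The libraries of the groups did not overlap for 6 of them, 4 had an unadjusted p under 0.05, and Sdc4 was called (0.94, edgeR adjusted p = 0.0251). The shares of all genes on the wild type side were 20.4% without overlap, 10.4% at that unadjusted p and 1.05% called. Summed muscle fibre markers (7 genes) stood at 2249 CPM in knockout 2 against 354.4 to 517.6 CPM in the other libraries, and summed endothelial markers (10 genes) at 2478 and 2053 CPM in knockout 1 and 2 against 990.0 to 1292 CPM in wild type.

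Upstream sequences of the catalytic subunits are shown because the constitutive and the inducible form of the particle are the contrast that the values below turn on. RefSeq (GRCm38.p6) gave a promoter window for 31 of the 37 members. Those of Psmb1, Psmb2, Psmb7, Psmc3, Psmd3 and Psmd7 were not matched. Psmb5 and Psmb6 are given over the 250 bases before the start, with matches to TGACNNNGC in capitals, the core of the antioxidant response element through which Nfe2l1 and Nfe2l2 act. The last sequence is the whole stretch between the divergent starts of Psmb9 and the peptide transporter gene Tap1, with the NF-Y box CCAAT in capitals.
Psmb5, chr14:54617996-54618245, minus strand: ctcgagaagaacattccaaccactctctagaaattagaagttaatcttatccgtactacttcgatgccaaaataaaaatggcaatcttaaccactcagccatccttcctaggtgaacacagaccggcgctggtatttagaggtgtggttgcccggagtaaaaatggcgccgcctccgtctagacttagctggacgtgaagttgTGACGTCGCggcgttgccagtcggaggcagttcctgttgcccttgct
Psmb6, chr11:70525107-70525356, plus strand: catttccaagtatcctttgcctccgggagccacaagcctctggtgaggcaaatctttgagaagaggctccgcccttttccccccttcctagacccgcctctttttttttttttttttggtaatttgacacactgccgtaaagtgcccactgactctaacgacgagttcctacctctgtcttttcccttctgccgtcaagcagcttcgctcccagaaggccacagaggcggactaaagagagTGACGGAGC
Psmb9 to Tap1, chr17:34187331-34187555, plus strand: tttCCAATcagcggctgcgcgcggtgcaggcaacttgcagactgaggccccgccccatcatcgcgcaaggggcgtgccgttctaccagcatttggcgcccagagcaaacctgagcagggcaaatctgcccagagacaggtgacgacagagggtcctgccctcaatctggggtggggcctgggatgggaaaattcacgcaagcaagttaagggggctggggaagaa

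Motifs were searched on both strands in these 250 bases for all RefSeq windows. TGACNNNGC was present in 5 of the 31 members (Psmb5, Psmb6, Psmc6, Psmd9 and Psmd12), or 16.1%, against 10.2% of 32851 windows. CCAAT was present in 12 members, or 38.7%, against 33.9% of all windows. A core of the interferon-stimulated response element is GAAA repeated after any 2 bases. It was present in Psmb3, Psmd4 and Psmd9, or 9.68% of the 31 members, against 2.98% of all windows. TTCNNNGAA, a form of the gamma-activated site, was present in Psmb8 alone among the members, or 3.23%, against 7.02% of all windows. The shares of members come from small counts, and a match says only that these letters occur in the window. A member was counted if any of its windows matched (33 windows for 31 members), whereas the share of all is over single windows. The Psmb9 and Tap1 stretch matters for the counts too, because the longest exon of Psmb9 in the deposited table runs across it and shares 212 bases with Tap1, 5.79% of the exon length of Psmb9. The strand setting of the counting is not given in the sources used here, so reads may be shared between the genes.

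Fold changes of the proteasome subunit transcripts between wild type and knockout precipitates were small and lay on both sides of 0. None of the 37 members passed an adjusted p of 0.05 in edgeR's quasi-likelihood test in either direction, where 2.05% of all genes did (1.05% on the wild type side, 1.00% on the knockout side). The median log2 fold change, wild type over knockout, was 0.02 over the members and 0.00 over all genes (0.023 and 0.0032 with more digits), with members from -0.91 (Psmb9) to 0.62 (Psmd9). At an unadjusted p under 0.05 there were 5 members, or 13.5%, against 20.4% of all genes (10.4% on the wild type side and 9.99% on the knockout side). These were Psmb9, Psmb8 and Psmc5 on the knockout side and Psmd9 and Psmd11 on the wild type side. DESeq2 called Psmb9 and Psmc5, both higher in knockout, where it called 8.04% of all genes (4.16% higher in knockout). limma-voom called 0 members and 0.197% of all genes. With the replicate number as a block edgeR called Psmb9, where it called 5.47% of all genes (2.89% higher in knockout). No knockout library shares the number of wild type 3, so in that fit wild type 3 did not inform the genotype contrast. Whether libraries of the same number are pairs is not known.

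The members were measured more precisely than most genes. For 32 of 37 the 95% interval of the fold change lay inside 2-fold in both directions, which held for 48.8% of all genes. The exceptions were Psmb8, Psmb9, Psmd5, Psmd9 and Psmd11. Libraries of the groups did not overlap for 20 members, 10 with wild type higher and 10 with knockout higher, against 38.4% of all genes (20.4% and 18.1% by direction). Small differences separated the groups in many of these. Psmd6, a cap subunit, had 48.6, 47.6 and 49.6 CPM in wild type 1 to 3 and 44.6 and 46.8 CPM in knockout 1 and 2, with wild type higher in each comparison and a log2 fold change of only 0.09 (edgeR adjusted p = 0.853).

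**Figure D1:**
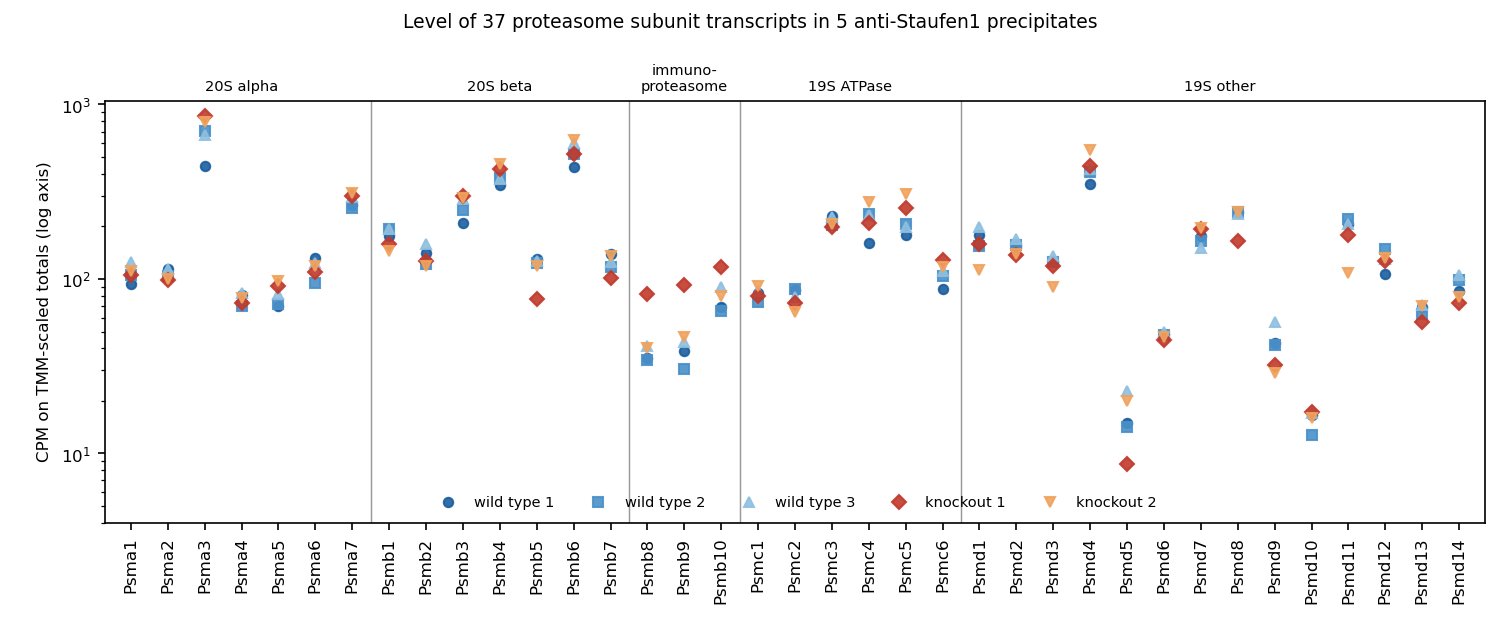
CPM (log axis) of the 37 proteasome subunit transcripts in each of the 5 libraries, grouped by role; each point is 1 library and no error bars are drawn. The libraries lie close together for most members, whereas knockout 1 stands above the other 4 libraries at Psmb8, Psmb9 and Psmb10 (81.9, 92.7 and 117.4 CPM) and below them at Psmb5 (76.4 CPM) and Psmd5 (8.69 CPM).

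Together the members took 0.5455% of the counts in wild type 1, 0.5889% in wild type 2, 0.6525% in wild type 3, 0.6455% in knockout 1 and 0.6668% in knockout 2. The ranges of both groups overlapped. The mean log2 level of the 37 members, centred over the libraries, was -0.07, -0.05 and 0.10 in wild type 1 to 3 and 0.00 and 0.01 in knockout 1 and 2, so the widest gap was between wild type libraries.

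The alpha ring genes showed no member past the threshold and 0 at an unadjusted p under 0.05, against 2.05% and 20.4% of all genes. Psma3, a subunit of the outer ring, was the highest alpha gene per base of exon, at 156 ± 36.9 CPM per kilobase (SD, n = 3) in wild type and 212 ± 12.5 (SD, n = 2) in knockout. Its level was 442.4, 707.8 and 671.2 CPM in wild type 1 to 3 and 858.5 and 789.9 CPM in knockout 1 and 2. Both knockout libraries were above all wild type libraries, mostly so against wild type 1. This gave a log2 fold change of -0.44 (SE 0.21, adjusted p = 0.249 in edgeR's quasi-likelihood test).

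Psma2, at the other end of the alpha genes by fold change, had 114.3, 104.4 and 114.0 CPM in wild type and 98.4 and 99.6 CPM in knockout. The libraries did not overlap, and the log2 fold change was 0.16 (95% interval -0.24 to 0.56). Psma4, the lowest alpha gene per base of exon (32.4 CPM per kilobase over all libraries), had 70.2 to 83.1 CPM in wild type and 72.6 and 77.3 CPM in knockout, a log2 fold change of 0.06. The median over the 7 alpha genes was 0.00 (-0.003 before rounding).

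The constitutive beta ring likewise had 0 of 7 members called and 0 at an unadjusted p under 0.05, with a median of 0.11. Over all genes these shares were 2.05% and 20.4%. Psmb6, the caspase-like subunit, was the highest of all members per base of exon in the mean over all 5 libraries, at 289.7 CPM per kilobase against 286.1 for Psmb4, another subunit of this ring. In knockout Psmb4 was the higher, at 318 ± 15.7 CPM per kilobase (SD, n = 2), and the order of the 2 genes lay within the spread between libraries. Psmb6 had 279 ± 42.6 CPM per kilobase (SD, n = 3) in wild type and 306 ± 39.0 (SD, n = 2) in knockout. Per library it had 441.0, 522.6 and 600.6 CPM in wild type and 521.8 and 625.1 CPM in knockout. The groups overlapped, and the log2 fold change was -0.14 (95% interval -0.54 to 0.27).

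Psmb5, the chymotrypsin-like subunit and the main target of proteasome inhibitor drugs, had the highest fold change of the beta genes. Its level was 129.4, 122.7 and 126.2 CPM in wild type and 76.4 and 118.7 CPM in knockout. Knockout 1 was the low library, while knockout 2 lay close to wild type. The knockout libraries differed from each other by a ratio of 0.644 (knockout 1 over knockout 2, 95% counting interval 0.568 to 0.732, from 730 and 373 counts). This gave a log2 fold change of 0.38 (SE 0.21, adjusted p = 0.340 in edgeR's test).

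Psmb7, the trypsin-like subunit, had 139.6, 117.0 and 125.9 CPM in wild type and 101.9 and 136.2 CPM in knockout. Here too knockout 1 was the lowest library. The groups overlapped, and the log2 fold change was 0.11 (95% interval -0.32 to 0.53). RefSeq names 6 pseudogenes after members, of Psma5, Psmb5, Psmb6 (2) and Psmb7 (2). None of them was a row of the table, and the counting could have placed reads of such copies on the parent genes or left them out.

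The immunoproteasome genes all had a negative fold change, with higher levels in knockout 1, and 0 of 3 passed the threshold. Psmb9 (chromosome 17, 34181988 to 34187764, minus strand, mm10) is the inducible counterpart of Psmb6. It had 38.8, 30.3 and 43.4 CPM in wild type 1 to 3 and 92.7 and 46.4 CPM in knockout 1 and 2. Knockout 1 was far above the others, and knockout 2 only just above wild type 3. The wild type mean was 37.5 ± 6.66 CPM (SD, n = 3) and the knockout mean 69.6 ± 32.7 CPM (SD, n = 2), with a log2 fold change of -0.91 (SE 0.28, adjusted p = 0.0887 in edgeR's test).

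Psmb8, the inducible counterpart of Psmb5, lies on the same chromosome on the far side of Tap1 (17, 34197721 to 34201454, plus strand). It had 35.1, 34.5 and 41.3 CPM in wild type and 81.9 and 40.1 CPM in knockout. Knockout 2 lay within the wild type range. This gave a log2 fold change of -0.74 (SE 0.27, adjusted p = 0.147 in edgeR's test).

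Psmb10, the inducible counterpart of Psmb7, is a separate locus (chromosome 8, 105935728 to 105938392, minus strand). It had 68.9, 65.1 and 90.1 CPM in wild type and 117.4 and 80.2 CPM in knockout, with knockout 1 again the highest and knockout 2 inside the wild type range. This gave a log2 fold change of -0.41 (SE 0.23, adjusted p = 0.328 in edgeR's test).

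The difference between the knockout libraries was beyond counting error for all 3 genes, as it also was for other members. Among those were Psmd11 (knockout 1 over knockout 2, 1.66, 95% counting interval 1.48 to 1.87) and, in the other direction, Psmd8 (0.684, 0.627 to 0.747). Knockout 1 exceeded knockout 2 by 1.996-fold for Psmb9 (95% counting interval 1.67 to 2.39, from 885 and 146 counts), 2.04-fold for Psmb8 (1.69 to 2.49, from 782 and 126 counts) and 1.46-fold for Psmb10 (1.28 to 1.69). Without knockout 2, edgeR called Psmb9 (log2 fold change -1.30, adjusted p = 0.0357) and Psmb8 (-1.15, adjusted p = 0.0439), in a fit that called 1.30% of all genes (0.733% higher in knockout). Without knockout 1 the values were -0.31 and -0.12 (edgeR adjusted p = 0.594 and 0.856). Most of the gap between the groups for Psmb8 and Psmb9 thus came from knockout 1.

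Set against its constitutive counterpart, each inducible subunit had its highest ratio in knockout 1. Per base of exon, Psmb8 stood at 0.0863, 0.0896 and 0.104 of Psmb5 in wild type 1 to 3, at 0.341 in knockout 1 and at 0.108 in knockout 2. Both genes of this comparison contributed, since Psmb5 was low where Psmb8 was high. Psmb9 stood at 0.0450, 0.0297 and 0.0370 of Psmb6 in wild type, 0.0909 in knockout 1 and 0.0381 in knockout 2. Psmb10 stood at 0.472, 0.532 and 0.684 of Psmb7 in wild type, 1.10 in knockout 1 and 0.563 in knockout 2. In wild type and in knockout 2 the constitutive transcript exceeded the inducible one in all 3 comparisons, and in knockout 1 Psmb10 passed Psmb7. Exon lengths are those of merged transcripts, so the absolute ratios depend on that annotation.

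The difference in mean log2 ratio, wild type minus knockout, was -1.04 for Psmb8 over Psmb5, -0.68 for Psmb9 over Psmb6 and -0.50 for Psmb10 over Psmb7. A two-sided exact permutation test over the 5 libraries gave p = 0.1, 0.3 and 0.4 for these 3 comparisons, which became 0.3, 0.4 and 0.4 after Benjamini-Hochberg adjustment over them. The smallest p this design allows is 0.1. Without knockout 1 the differences were -0.21, -0.055 and -0.019, and without knockout 2 they were -1.87, -1.31 and -0.99.

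**Figure D2:**
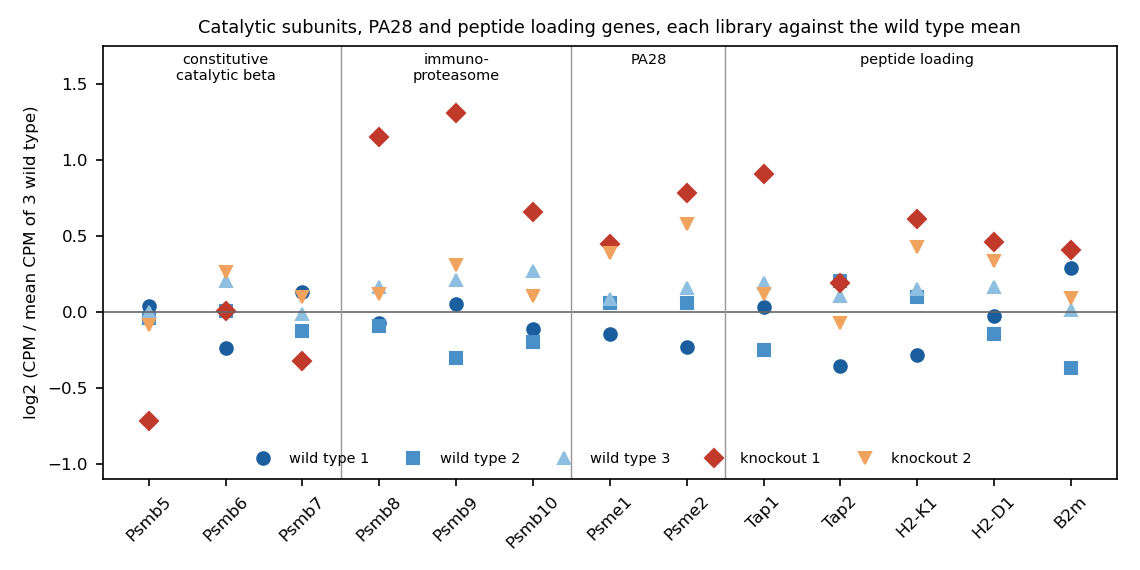
Log2 of the CPM in each library over the mean CPM of the 3 wild type libraries (vertical axis) for the constitutive and inducible catalytic subunits, the PA28 activator genes and peptide loading genes; each point is 1 library and the line at 0 is the wild type mean. Knockout 1 is the highest library at Psmb8, Psmb9, Psmb10 and Tap1 and the lowest at Psmb5 and Psmb7, while both knockout libraries lie above the wild type libraries at Psme1, Psme2, H2-K1 and H2-D1.

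Genes that act next to the immunoproteasome did not all follow it. Tap1, which carries the cut peptides into the endoplasmic reticulum, had 56.7, 46.6 and 63.2 CPM in wild type and 104.1 and 60.1 CPM in knockout. This was the order of Psmb8, with knockout 2 inside the wild type range, and the log2 fold change was -0.58 (edgeR adjusted p = 0.206). Psme2, the beta subunit of the interferon-inducible activator PA28, had 92.5, 113.2 and 121.0 CPM in wild type and 187.4 and 162.6 CPM in knockout, so that both knockout libraries were high. It had a log2 fold change of -0.69 (SE 0.19, adjusted p = 0.0721 in edgeR's test). Psme2b, a copy of Psme2, also had a row, so the counts of Psme2 are uncertain. Psme1, the alpha subunit, had 126.0 to 148.3 CPM in wild type and 190.2 and 182.6 CPM in knockout (log2 fold change -0.42, edgeR adjusted p = 0.213). Of 9 genes of peptide loading, 0 were called, with a median of -0.25. At an unadjusted p under 0.05 there were 3 on the knockout side (H2-K1, H2-D1 and Tap1) and 1 on the wild type side (Erap1). This was 44.4% of them, against 20.4% of all genes. Both knockout libraries were above all wild type libraries for H2-K1 and H2-D1 alone of the 9, and below them for Erap1. Of all genes, 18.1% had knockout higher without overlap and 20.4% wild type higher. The mean centred log2 level of the 9 genes was 0.17 in knockout 1 and -0.12 in knockout 2, against -0.03, -0.09 and 0.07 in wild type 1 to 3.

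Markers of other cell types differed between the groups as well. All 10 endothelial markers were higher in both knockout libraries than in each wild type library, and 5 of them passed the threshold. Of all genes, 18.1% had knockout higher without overlap, 1.00% were called higher in knockout and 1.05% higher in wild type. The summed endothelial level was 990.0 to 1292 CPM in wild type, 2478 CPM in knockout 1 and 2053 CPM in knockout 2. Of 13 leukocyte markers 11 had a row and 0 were called. Their summed level was 378.0 to 615.5 CPM in wild type and 651.2 and 622.2 CPM in knockout. By mean centred log2 level, wild type 1 was the highest library and wild type 2 the lowest. The values were 0.30, -0.42 and 0.03 in wild type 1 to 3 and 0.18 and -0.09 in knockout 1 and 2. C1qa was higher in each wild type library than in knockout (log2 fold change 1.55), and Cd74 was lower in each (-0.42). None of the 11 was at 0 in any library, and Adgre1 and Cd3e were not analysed here. All 3 red blood cell markers were called higher in knockout, with a median of -1.24. Of 7 fibro-adipogenic markers, Col1a1 and Col3a1 were called higher in wild type and Ly6a higher in knockout, with a median of 0.56. Of 3 Schwann cell markers, Mbp was called higher in knockout (-1.25, edgeR adjusted p = 0.0105). Of 7 muscle fibre markers 1 was called, higher in knockout, and of 6 pericyte and smooth muscle markers 0. Irf1, a transcription factor induced by interferon, was at a log2 fold change of -0.23, not called (edgeR adjusted p = 0.511). The part of these in the immunoproteasome values was not tested.

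The 19S cap had 0 of 20 members called, against 2.05% of all genes. At an unadjusted p under 0.05 it had 1 on the knockout side and 2 on the wild type side, or 15%, against 20.4% of all genes. Among the 6 ATPases the median was -0.15. Psmc5, one of the ATPases that thread the substrate into the core (chromosome 11, 106256154 to 106263120, plus strand, mm10), had 179.3, 205.3 and 197.8 CPM in wild type and 254.1 and 307.6 CPM in knockout. Both knockout libraries were above all wild type libraries. Wild type averaged 194 ± 13.4 CPM (SD, n = 3) and knockout 281 ± 37.9 CPM (SD, n = 2), giving a log2 fold change of -0.53 (SE 0.18, adjusted p = 0.121 in edgeR's test), with DESeq2 at an adjusted p of 0.0420.

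Psmc5 was also the highest ATPase gene per base of exon, at 164 CPM per kilobase over all libraries, and Psmc2 the lowest at 15.5. Psmc2 had 87.0, 88.2 and 78.5 CPM in wild type and 72.9 and 64.3 CPM in knockout, again without overlap but in the other direction. It had a log2 fold change of 0.30 (95% interval -0.13 to 0.72). The 6 ATPases form 1 ring in the assembled cap, and their fold changes ran from -0.53 to 0.30. Psmc3, with a fold change of 0.12, shares 215 exon bases with Slc39a13 on the opposite strand.

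The 14 other cap genes had a median of 0.22 and were mostly on the wild type side, with 11 above 0 and 3 below. Psmd4, a ubiquitin receptor of the cap, was the lowest of them by fold change. It was the highest per base of exon in the mean over all 5 libraries (155 CPM per kilobase, against 146 for Psmd8), whereas in wild type alone Psmd8 was higher (156 against 141). Psmd4 had 350.4, 412.0 and 426.7 CPM in wild type and 443.3 and 549.1 CPM in knockout, with a log2 fold change of -0.32 (95% interval -0.72 to 0.07). Knockout 2 was the high library.

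Psmd9, a chaperone that assembles the base of the cap, had the highest fold change of all members. It had 43.2, 42.0 and 56.6 CPM in wild type and 32.3 and 28.9 CPM in knockout, the last from 91 counts. Both knockout libraries were below all wild type libraries, and the fit gave a log2 fold change of 0.62 (SE 0.24, adjusted p = 0.170 in edgeR's test). Psmd11, a lid subunit that bridges cap and core, had 206.9, 219.6 and 205.4 CPM in wild type and 179.5 and 108.2 CPM in knockout. Knockout 2 carried most of that gap, and the fit gave a log2 fold change of 0.54 (SE 0.22, adjusted p = 0.184 in edgeR's test).

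Psmd5, another assembly chaperone, was the lowest member per base of exon at 4.71 CPM per kilobase. It had 14.9, 14.3 and 22.9 CPM in wild type and 8.69 and 20.04 CPM in knockout, the last from 83 and 63 counts. The knockout libraries differed by a ratio of 0.434 (95% counting interval 0.309 to 0.612), which is wider than the gap between the groups. Psmd10, the third of these chaperones, was at 12.8 to 16.9 CPM in wild type and at 17.2 and 15.9 CPM in knockout. The chaperones Psmd5, Psmd9 and Psmd10 took the 3 lowest places of the 37 members per base of exon in the mean over all 5 libraries (ranks 37, 36 and 35). In wild type alone Psmb9 (10.3 CPM per kilobase) was level with Psmd9 (10.4) and Psmd10 (10.5), differing by less than the spread between libraries.

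**Figure D3:**
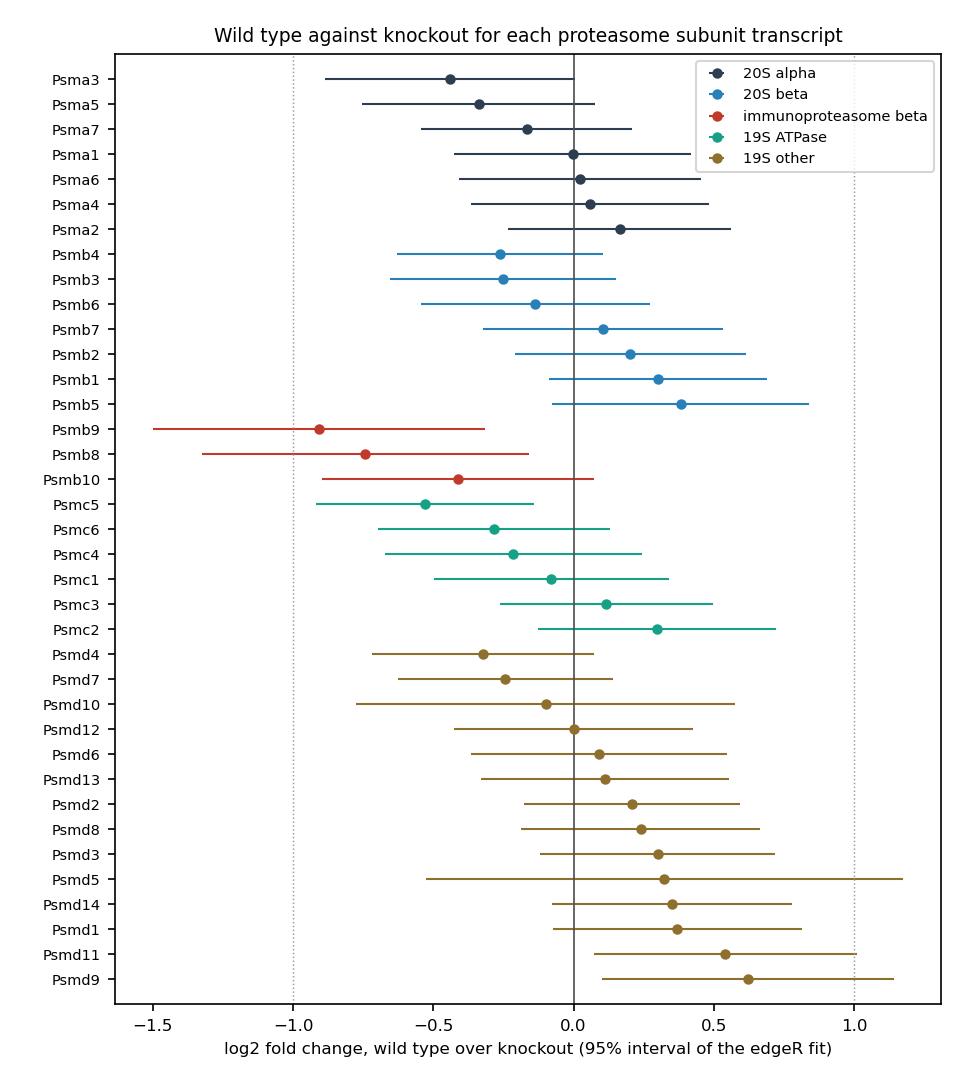
Log2 fold change, wild type over knockout, of each member (point) with the 95% interval of the edgeR fit (bar), ordered by role and value; dotted lines mark 2-fold in either direction. Most intervals cross 0 and lie inside the dotted lines, while those of Psmb9, Psmb8 and Psmc5 lie below 0 and those of Psmd9 and Psmd11 above it before adjustment over all genes.

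Core and cap were close to each other. The median was 0.01 over the 14 core genes and 0.11 over the 20 cap genes, a difference of -0.10. Their centred mean log2 levels were -0.08, -0.06 and 0.10 for the core and -0.03, 0.01 and 0.12 for the cap in wild type 1 to 3. In knockout 1 and 2 they were -0.04 and 0.07 for the core and -0.09 and -0.02 for the cap. By these means, the core was thus lower than the cap in the wild type libraries and higher in the knockout libraries. The split did not hold for the median centred levels. By median the core was above the cap in wild type 3 too (0.110 against 0.087). In knockout 1 the medians were nearly level (-0.054 for the core and -0.057 for the cap). Centring balances each gene over the libraries, so lower values in wild type require higher ones in knockout. Centred values also give no order of absolute levels, and by summed CPM the core was above the cap in every library. The shift was given no test.

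Within core and cap, the fold change ran in opposite directions along exon length. In the cap, longer genes were further on the wild type side, with Spearman's rho of 0.77 across 20 genes. In the core, longer genes were further on the knockout side, with a rho of -0.76 across 14 genes. Across all 11194 genes rho was 0.03. The genes share the same 5 libraries and are not independent replicates, so the coefficients are descriptions. Over 14 other fits they stayed between 0.60 and 0.80 in the cap and between -0.77 and -0.62 in the core. Changes of scaling or filter shift all fold changes by nearly the same amount, so they could hardly alter these ranks. All fits drew on the same 5 libraries and give no independent support. The longest cap genes were Psmd11 (6383 exon bases), Psmc2 (5031) and Psmd3 (4967), and the longest core gene was Psma3 (3894).

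**Figure D4:**
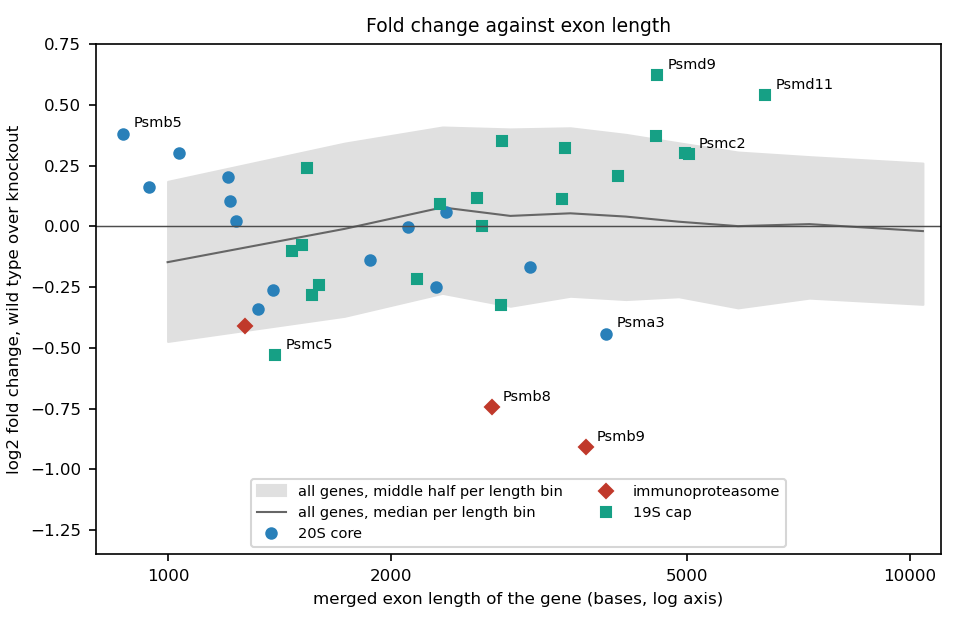
Log2 fold change, wild type over knockout, against merged exon length (log axis) for core (circles), immunoproteasome (diamonds) and cap genes (squares); the grey band is the interquartile range of all genes in each of 10 length bins and the line their median. Cap genes run from Psmc5, the shortest, up to Psmd9 and Psmd11 and core genes run from Psmb5, the shortest, down to Psma3, the longest, while the line of all genes stays between -0.15 and 0.08.

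Other genes of the pathway lay on both sides of 0, from -0.92 (Ngly1) to 1.04 (Rad23b). Of 37 such genes with a row, 0 were called. At an unadjusted p under 0.05 there were 3 on the wild type side and 5 on the knockout side, or 21.6%, against 20.4% of all genes, and the median was 0.02 (0.025 before rounding). By group, the median was 0.12 over 2 E1 enzymes, -0.13 over 5 activators and inhibitors, -0.04 over 5 assembly chaperones, -0.07 over 7 further cap subunits and bound enzymes, -0.05 over 4 ubiquitin genes, 0.20 over 8 shuttles and unfoldase genes and -0.03 over 6 regulators. Nfe2l1, the transcription factor that raises proteasome gene expression when the protease is inhibited, was at a log2 fold change of 0.02 (edgeR adjusted p = 0.963).

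Besides Psme2, the smallest p-values belonged to Psmg1 and Rad23b. Psmg1, a chaperone of alpha ring assembly, had 24.7, 45.2 and 36.7 CPM in wild type and 62.9 and 63.3 CPM in knockout. The knockout libraries were alike and above all wild type libraries, with a log2 fold change of -0.83 (SE 0.26, adjusted p = 0.0938 in edgeR's test). Rad23b, a shuttle that brings ubiquitin-tagged proteins to the cap, had 155.7, 164.1 and 116.1 CPM in wild type and 35.8 and 109.1 CPM in knockout. Knockout 1 was low and knockout 2 just under the lowest wild type library. It had a log2 fold change of 1.04 (SE 0.35, adjusted p = 0.116 in edgeR's test), which was 2.02 without knockout 2 (edgeR adjusted p = 0.00966) and 0.41 without knockout 1 (edgeR adjusted p = 0.423).

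Beside cytosolic ribosomal protein genes and nuclear oxidative phosphorylation genes, the proteasome members lay closest to 0. The median was -0.32 over 81 cytosolic ribosomal protein genes, with 1 called, higher in knockout, and 73 below 0. It was -0.20 over 91 nuclear genes of oxidative phosphorylation, with 0 called and 63 below 0. Of the 37 proteasome members 17 were below 0. Over all genes, 5567 of 11194 were below 0, 1.00% were called higher in knockout and 1.05% higher in wild type. The sets also differed in median exon length, at 1434 bases for the ribosomal, 1287 for the oxidative phosphorylation and 2300 for the proteasome genes. In the shortest of 10 length bins of all genes the median log2 fold change was -0.15. These are descriptions of the same 5 libraries, and the difference between the sets was not tested.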

How the data were processed

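Counts per gene from 5 anti-Staufen1 immunoprecipitates were used as the authors deposited them, as raw whole-number counts with a merged exon length and exon coordinates per gene. The submitters' processing notes list mm10 as the build and name STAR, Trim Galore, Subread's featureCounts and edgeR. No version, annotation release or strand setting is stated there.

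All 11194 genes were fitted in R 4.3.3 with edgeR 4.0.16 (filterByExpr, which removed no gene, TMM factors, glmQLFit and the two-sided quasi-likelihood test for genotype, Benjamini-Hochberg over all genes, threshold 0.05). Standard errors come from the coefficient and its F statistic. Alternatives used limma 3.58.1 and DESeq2 1.42.0. Fits were tested on simulated data. CPM per kilobase uses the deposited exon length. Log2 ratios of subunits added 0.5 counts. Counting intervals are exact (Clopper-Pearson, 95%) and cover counting error only. The members, lists and tests were chosen with earlier results of these data known. Genes named by rule are the catalytic subunits, the extremes of each class (Psma, Psmb, Psmc, Psmd) by fold change and by level per length, and the 3 other pathway genes with the smallest p. Other named genes, such as Psmd6, Psmd10 and Psmd11, were chosen after their values were seen.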

Additional observations from a re-analysis of the deposited data

How the results depend on the processing

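The count of members higher in wild type was 0 in all 14 alternative fits. The count higher in knockout, 0, was 2 with DESeq2 (Psmb9 and Psmc5), 1 with the replicate number as a block (Psmb9, adjusted p = 0.0225) and 0 to 2 with each library left out, the 2 being Psmb8 and Psmb9 without knockout 2. The median over members ran from -0.039 to 0.11 with a library left out. The difference of core and cap medians, -0.10, was -0.18 after thinning every library to the shallowest total, -0.16 with the replicate block and -0.14 to -0.050 with a library left out. Same-numbered libraries had correlations of deviations of 0.050 and 0.040, and with 2 shared numbers the pairing could not be established. Psma4 turned to -0.0074 after thinning, and with a library left out Psmb7 ran from -0.094 to 0.32 and Psmd5 from -0.21 to 0.997, both lowest without knockout 1; none of these was called in any fit, and the cause was not tested. With the block and with DESeq2, Psme2, Psmg1 and Rad23b were also called. Leaving out a knockout library leaves 1, which is assumed to vary like wild type. For genes under about 100 counts in knockout 2 (Psmd5, Psmd9, Psmd10), depth limits the precision of the values. The difference between the knockout libraries for Psmd5 was nevertheless beyond counting error.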
